A study of Mus musculus with 6 samples.

Results

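The genes through which amacrine cells make, store, take up or release their transmitters were examined in the adult mouse retina with and without Onecut2. The members were 9 genes, namely Gad1 and Gad2 for GABA, Slc6a5 and Slc6a9 for glycine, Chat and Slc18a3 for acetylcholine, Th for dopamine, Slc17a8 for glutamate and the peptide gene Vip. They were chosen by name, and every probe set whose platform symbol is exactly 1 of them was taken. This gave 12 of the 45101 probe sets of each array, covering 8 of the 18193 genes that have a probe set of their own symbol. No probe set in the annotation used carried the symbol of Slc17a8, so the glutamate type was not analysed here. The samples were retinas of adult mice, 3 OC2-KO and 3 OC2-WT littermates per the labels, and each was hybridised to 1 Affymetrix array. The OC2-KO mice carry null Onecut2 alleles, the labels give no agent or treatment, and neither sex nor exact age is stated for these arrays. Values are log2 of the deposited intensity, so that a difference of 1 is a 2-fold change.

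Amacrine cells are the inhibitory interneurons of the inner retina, and they shape the signals that pass from bipolar cells to ganglion cells. Most release GABA or glycine. Small groups add acetylcholine, dopamine, glutamate or a peptide such as VIP to their output, and each group is recognised by the enzyme or transporter that handles its transmitter. Onecut2 is a transcription factor made in the developing retina, among others in horizontal cells, which are inhibitory interneurons of the outer retina and can also use GABA. The comparison asks whether transcripts of the amacrine transmitter machinery differed in the mature retina when Onecut2 was missing. In RNA from whole retina, fewer cells of a type and less RNA per cell cannot be told apart.

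Arrays that carry the same number in their titles varied together and are called pairs. For Actb, the 3' control probe set exceeded the 5' one by a log2 difference that was 3.39 in OC2-KO and 2.95 in OC2-WT of pair 3 and lay between 0.71 and 1.41 on the other 4 arrays. The 3 probe sets of Onecut2 itself stood above OC2-WT by 2.27 to 2.84 in OC2-KO. The study places them in a 3' part of the gene that is still transcribed, so they do not check the labels. Of 5 rod markers with a probe set 5 passed the expression filter, a mean log2 intensity above 7 in either genotype, and so did 10 of 10 amacrine cell markers. Lens markers had summed intensities of 23893 to 34039 in OC2-KO and 3816 to 40508 in OC2-WT, and their part in the member values was not tested. The labels do not state whether 1 animal or several gave the RNA of an array, and the p-values then cover the variation among 6 arrays, which may be technical.

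In the unpaired fit, no member probe set differed between the genotypes beyond the spread of the arrays, which includes the variation that pairs share. Of the 12 probe sets, 10 passed the filter, and the mean of 1 Slc6a5 probe set and of the Chat probe set lay below it in both genotypes. Among the 10, limma gave 0 past an adjusted p of 0.05, where 0 of 21176 probe sets (0%) passed in all. At an unadjusted p of 0.05 limma counted 0 of 10, against a background of 209 probe sets or 0.987%, and the smallest unadjusted p of a member was 0.135, for Th. The methods' t-test counted 300 over all probe sets at that threshold, with 0 of the 10 members among them. With the replicate number as a block, limma counted 1 of 10 there, a probe set of Gad1, against a background of 4.19%. At an adjusted p of 0.05 the block took 0 probe sets. The values of the genotypes overlapped for all 12 member probe sets, where 3.28% of the probe sets kept did not overlap. The 95% interval of the difference lay within 2-fold in either direction for 9 of the 10, the exception being 1 probe set of Gad1. This count was not made over all probe sets kept. The median difference over the 10 was -0.14, with 7 lower and 3 higher in OC2-KO. That split turns to 3 lower and 7 higher when each array is centred on its amacrine cell markers, since that centring adds the same 0.24 to every difference. The marker medians used, over 22 probe sets, were 8.77, 9.81 and 9.31 in OC2-KO and 9.36, 9.87 and 9.36 in OC2-WT. They lay furthest apart in pair 1. Slc18a3 and Th, counted among the 7, passed the filter through OC2-WT alone, which favoured a lower value. Over all probe sets kept the median was -0.0084 and 51.9% were lower.

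**Figure D1:**
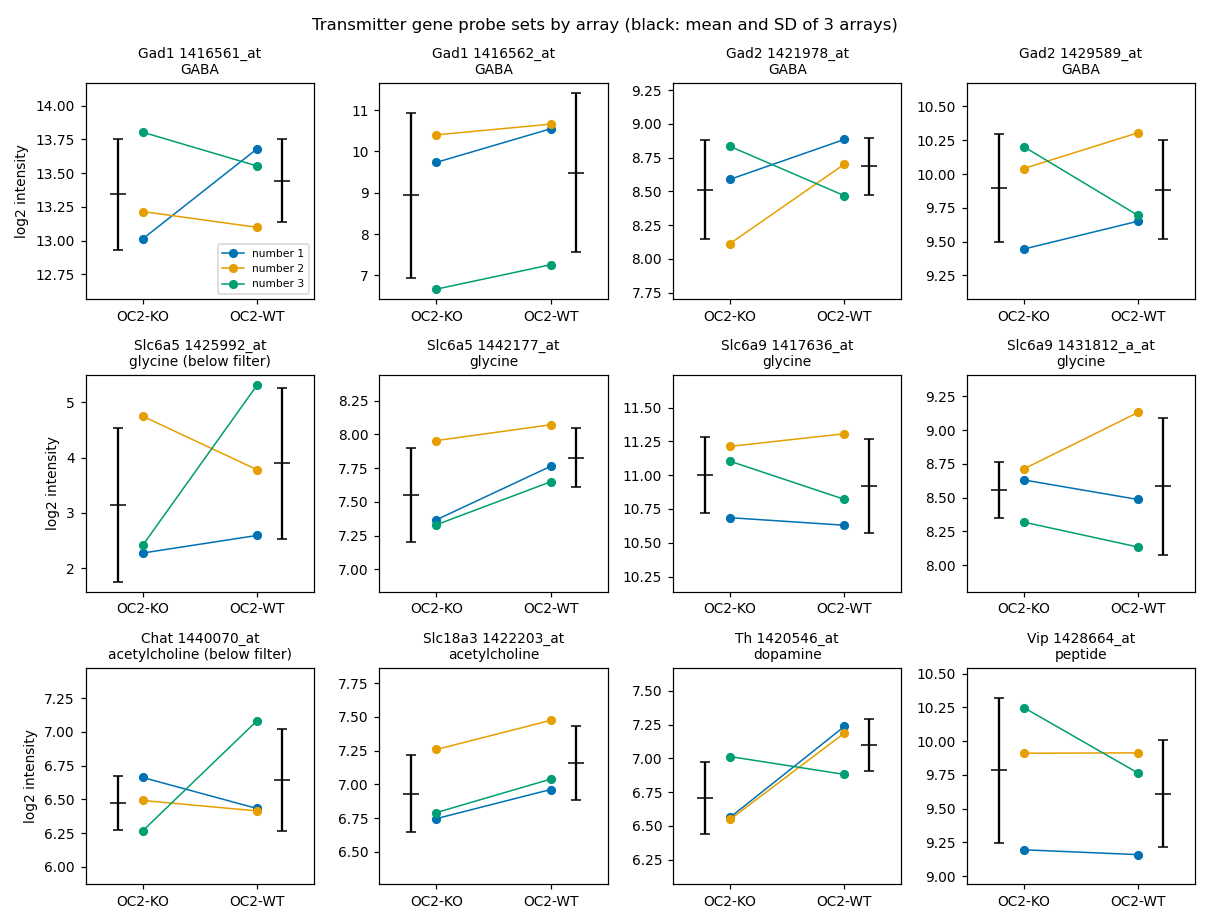
Log2 intensity (vertical axis, scaled panel by panel) of the 12 member probe sets on each array, by genotype (horizontal axis). A line connects equally numbered arrays and black marks give mean and SD (n = 3); the genotypes overlap in every panel, and Gad1 1416562_at stands at 6.67 and 7.26 on the arrays numbered 3.

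GABA is made from glutamate by 2 decarboxylases, GAD67 from Gad1 and GAD65 from Gad2. On 1416561_at, Gad1 had log2 intensities of 13.01, 13.22 and 13.80 in OC2-KO and 13.68, 13.10 and 13.55 in OC2-WT. The ranges nearly coincide, and the OC2-KO array numbered 1 and the OC2-WT array numbered 2 were the lowest of their groups. The difference was -0.10 ± 0.29 (SE, n = 3 each), or 0.93-fold with a 95% interval of 0.58-fold to 1.49-fold (limma, adjusted p = 1.00).

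The second Gad1 probe set, 1416562_at, is annotated with the same transcript accession but followed the arrays differently. It had log2 intensities of 9.73, 10.40 and 6.67 in OC2-KO and 10.55, 10.66 and 7.26 in OC2-WT. Both arrays numbered 3 were far below the others, with a mean of pair 3 minus the mean of pairs 1 and 2 of -3.37 log2 units, while 1416561_at stood 0.43 above there. A gap at least as deep was found in 37 of 21176 probe sets kept, or 0.175%. The 5' control probe set of Actb moved with it, at 12.40, 13.11 and 10.49 in OC2-KO and 12.63, 13.15 and 10.89 in OC2-WT, and its part in the Gad1 values was not tested. Within pairs, 1416562_at differed by -0.81, -0.26 and -0.59 between OC2-KO and OC2-WT in pairs 1, 2 and 3. The unpaired estimate was -0.55 ± 1.21 (SE, n = 3 each), with a 95% interval from -3.41 to 2.30 that includes both directions. The number of the array took up 96.6% of the variation of this probe set, and the unpaired interval includes that variation. With the replicate number as a block the SE was 0.18 and limma's unadjusted p was 0.0229, the 1 member of 10 past 0.05 in a fit that took 887 probe sets or 4.19% past it (adjusted p = 1.00). Since 1416561_at differed by -0.67, 0.12 and 0.25 within the same pairs, the 2 probe sets of Gad1 agreed in direction in pair 1 only.

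**Figure D2:**
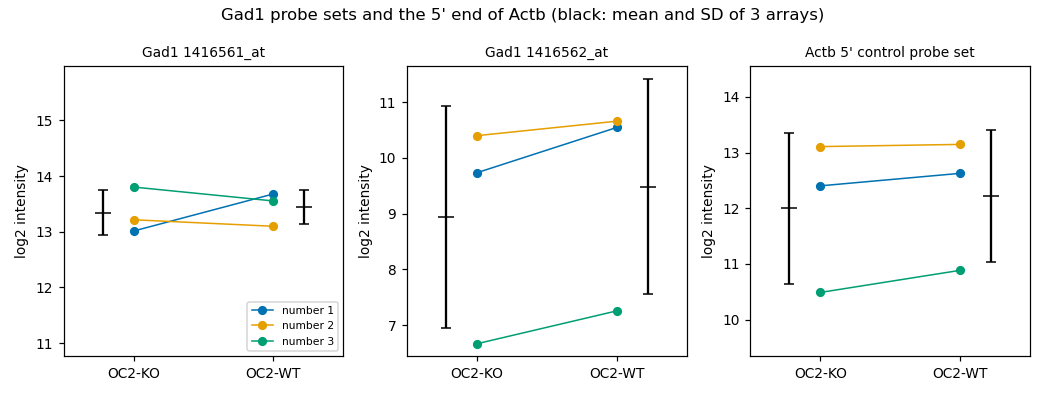
Log2 intensity (vertical axis, each panel spanning the same number of log2 units) of both Gad1 probe sets and of the 5' control probe set of Actb by genotype (horizontal axis), where a line connects equally numbered arrays and black marks give mean and SD (n = 3). On the arrays numbered 3, Gad1 1416562_at and Actb are low in both genotypes, whereas Gad1 1416561_at stands at 13.80 in OC2-KO and 13.55 in OC2-WT.

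Gad2, whose product sits at nerve terminals, had log2 intensities on 1429589_at of 9.44, 10.04 and 10.20 in OC2-KO and 9.65, 10.31 and 9.69 in OC2-WT. On 1421978_at they were 8.59, 8.11 and 8.83 in OC2-KO and 8.88, 8.70 and 8.47 in OC2-WT. The genotypes overlapped on both probe sets. The differences were 0.013 ± 0.30 and -0.17 ± 0.26 (SE, n = 3 each; limma, adjusted p = 1.00 for both). Both probe sets were lower in OC2-KO in pairs 1 and 2 and higher in pair 3, by 0.51 on 1429589_at and 0.36 on 1421978_at.

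Of the other genes that handle GABA, 5 of 6 had a probe set and passed the filter, taking the brightest probe set of each gene. Of these, 1 was higher and 4 were lower in OC2-KO, 0 past an unadjusted p of 0.05, with a median difference of -0.17 beside -0.0048 over the 11065 genes with a probe set kept. Slc32a1 encodes the vesicular transporter that loads both GABA and glycine, and it differed by -0.078 ± 0.31 (SE). Aldh5a1 and Abat, which encode enzymes of GABA breakdown, differed by -0.25 ± 0.28 and -0.27 ± 0.31 (SE). The largest of their differences within pairs fell in pair 1, at -0.58 for Aldh5a1 and -0.74 for Abat.

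Glycinergic amacrine cells are recognised by GlyT1, the plasma membrane glycine transporter encoded by Slc6a9. On 1417636_at its log2 intensities were 10.69, 11.21 and 11.10 in OC2-KO and 10.63, 11.31 and 10.82 in OC2-WT. The order of the arrays followed their numbers rather than their genotype, with both arrays numbered 1 lowest and both numbered 2 highest. The difference was 0.082 ± 0.27 (SE, n = 3 each), or 1.06-fold with a 95% interval of 0.68-fold to 1.64-fold (limma, adjusted p = 1.00). The other probe set, 1431812_a_at, stood at 8.63, 8.71 and 8.32 in OC2-KO and at 8.49, 9.13 and 8.13 in OC2-WT, a difference of -0.030 ± 0.30 (SE).

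Slc6a5 encodes GlyT2, which is best known as the transporter of glycinergic terminals in spinal cord and brainstem. Its probe set 1442177_at had log2 intensities of 7.37, 7.95 and 7.33 in OC2-KO and 7.76, 8.07 and 7.65 in OC2-WT. Each OC2-KO array lay below the OC2-WT array of its number, by 0.40, 0.12 and 0.32, but the groups overlapped, and both arrays numbered 2 were the highest of their group. The difference was -0.28 ± 0.26 (SE, n = 3 each; limma, adjusted p = 1.00). The other probe set, 1425992_at, lay below the filter, between 2.27 and 4.75 in OC2-KO and between 2.59 and 5.31 in OC2-WT, and it differed by -2.90 in pair 3 against 0.97 in pair 2. Among the other genes of glycine handling, 4 of 6 were measured above the filter, 3 higher and 1 lower in OC2-KO, 0 past an unadjusted p of 0.05. Gldc and Gcsh, which encode parts of the glycine cleavage system, differed by 0.33 ± 0.26 and 0.17 ± 0.23 (SE).

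Starburst amacrine cells are the acetylcholine neurons of the retina. Choline acetyltransferase, from Chat, makes the transmitter, and the vesicular transporter from Slc18a3 loads it. Slc18a3 lies inside the span of Chat in the gene table used. Slc18a3 on 1422203_at had log2 intensities of 6.75, 7.26 and 6.79 in OC2-KO and 6.96, 7.47 and 7.04 in OC2-WT. The 3 differences within pairs were nearly equal, at -0.22, -0.22 and -0.25, and smaller than the gap between pair 2 and the others, so that the groups overlapped. The difference was -0.23 ± 0.25 (SE, n = 3 each), or 0.85-fold with a 95% interval of 0.57-fold to 1.29-fold (limma, adjusted p = 1.00), and with the replicate block the unadjusted p was 0.185. Its means were 6.93 in OC2-KO and 7.16 in OC2-WT, so it passed the filter through OC2-WT alone. Chat on 1440070_at had 6.66, 6.49 and 6.27 in OC2-KO and 6.43, 6.41 and 7.08 in OC2-WT. It was higher in OC2-KO in pairs 1 and 2 and lower in pair 3 by 0.81, and at this level, below the filter, its difference of -0.17 has an SE of 0.32 in a fit without the filter.

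Of the other genes that handle acetylcholine, 6 of 6 had a probe set and 4 passed the filter, 1 higher and 3 lower in OC2-KO, with 0 past an unadjusted p of 0.05 and a median of -0.066. Bche, a cholinesterase, differed by -0.36 ± 0.22 (SE) and passed the filter through OC2-WT alone, and Slc44a1, a choline transporter of the plasma membrane, by 0.15 ± 0.24 (SE). Slc5a7, the high-affinity choline transporter of cholinergic neurons, lay below the filter with a mean of 3.99 in OC2-KO and 4.99 in OC2-WT and an SD of 1.84 and 1.94. The acetylcholine receptor genes above the filter were 4 higher and 4 lower, with a median of -0.030. Chrnb4, among the 4 higher, passed the filter through OC2-KO alone, with means of 7.34 in OC2-KO and 6.85 in OC2-WT. Chrnb3 and Chrna4, nicotinic subunits, differed by -0.50 ± 0.31 and -0.72 ± 0.53 (SE). Chrna4 differed by -2.06 in pair 3, against 0.19 in pair 1 and -0.31 in pair 2, and without the OC2-KO array numbered 3 its difference was -0.073. It passed the filter through OC2-WT alone. Markers of starburst cells that passed the filter were 0 higher and 3 lower, led by Isl1 (-0.32 ± 0.25, SE), a transcription factor, and Megf10 (-0.46 ± 0.53, SE), a receptor that spaces these cells. Isl1 is not particular to starburst cells, and the study used it as a marker of bipolar cells. The difference of Megf10 ran from -0.94 to -0.033 when 1 array was left out, the smallest without OC2-KO replicate 1.

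Dopamine is released by a sparse set of amacrine cells, and tyrosine hydroxylase, from Th, is the rate-limiting enzyme of its synthesis. On 1420546_at, Th had log2 intensities of 6.56, 6.55 and 7.01 in OC2-KO and 7.24, 7.19 and 6.88 in OC2-WT. Of the 3 OC2-KO arrays, 2 lay below every OC2-WT array, and the OC2-KO array numbered 3 lay above the OC2-WT array of its number. The difference was -0.39 ± 0.23 (SE, n = 3 each), or 0.76-fold with a 95% interval of 0.52-fold to 1.11-fold (limma, adjusted p = 1.00). In pairs 1, 2 and 3 it was -0.67, -0.64 and 0.13. Without pair 3 it was -0.66, with an unadjusted p of 0.0403 in a fit that took 0.987% of probe sets past 0.05 (limma, adjusted p = 1.00). Genotype took up 52.1% of the variation of Th across arrays, against a median of 3.82% over the members kept and of 5.0% over all probe sets kept, a description of 6 arrays. Th has means of 6.71 in OC2-KO and 7.10 in OC2-WT, so it too passed the filter through OC2-WT alone.

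The start regions of Th and Slc6a9 are shown because Th had the smallest p of the members and Slc6a9 is the measured member whose start region holds letters bound by Onecut factors. They are the bases upstream of an annotated start, from RefSeq, and capitals mark matches to a motif.
Th (GRCm38.p6, chr7:142899996-142900245, minus strand): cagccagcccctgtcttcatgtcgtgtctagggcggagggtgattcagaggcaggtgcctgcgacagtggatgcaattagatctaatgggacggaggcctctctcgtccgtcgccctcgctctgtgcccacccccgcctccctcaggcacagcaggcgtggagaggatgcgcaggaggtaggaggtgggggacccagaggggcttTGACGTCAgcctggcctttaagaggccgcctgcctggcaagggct
Slc6a9 (GRCm38.p6, chr4:117835008-117835257, plus strand): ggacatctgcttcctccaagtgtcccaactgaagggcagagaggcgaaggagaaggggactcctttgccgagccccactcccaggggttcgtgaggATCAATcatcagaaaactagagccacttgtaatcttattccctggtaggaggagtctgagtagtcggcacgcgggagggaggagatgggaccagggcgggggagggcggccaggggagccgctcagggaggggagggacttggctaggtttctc
In Th the capitals are TGACGTCA, the cyclic AMP response element, starting 45 bases before the start. In Slc6a9 they are ATCAAT, the reverse complement of ATTGAT, starting 154 bases before the start of 1 of its 3 annotated starts. The 9 members matched 13 such windows of 250 bases. Both strands were searched. ATCGAT was found in 0 of the 13 and in 0.728% of 32817 windows over all genes, ATTGAT in 2 (the other being in Slc17a8) and in 6.73%, and TGACGTCA in 1 and in 1.55%. A match of letters is no evidence of binding, and the data hold no measure of binding.

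Of the other genes that handle dopamine, 10 of 11 had a probe set and 7 passed the filter, 3 higher and 4 lower in OC2-KO, with 0 past an unadjusted p of 0.05 and a median of -0.041. Maob, among the 4 lower, passed the filter through OC2-WT alone, with means of 6.96 in OC2-KO and 7.18 in OC2-WT. Spr and Qdpr encode enzymes that make and recycle the tetrahydrobiopterin cofactor of tyrosine hydroxylase, and they differed by 0.28 ± 0.26 and -0.14 ± 0.28 (SE). The genes for the next enzyme, Ddc, and for the dopamine transporter, Slc6a3, lay below the filter, and Ddc had a mean of 6.70 in OC2-KO and 6.45 in OC2-WT. Receptors for dopamine and VIP above the filter were 1 higher and 3 lower, with Drd2 at -0.29 ± 0.28 and Drd1 at -0.15 ± 0.24 (SE), both dopamine receptors.

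For the glutamate type, other genes of glutamate handling are given as context only: vesicular and uptake transporters and the glutamine synthetase gene Glul. Of these 6 genes above the filter, 2 were higher and 4 lower, 0 past an unadjusted p of 0.05. Slc17a6, the vesicular glutamate transporter of ganglion cells, differed by -0.15 ± 0.23 (SE), and the uptake transporter gene Slc1a2 by 0.18 ± 0.21 (SE).

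Vip encodes vasoactive intestinal peptide, which marks a group of GABAergic amacrine cells. On 1428664_at its log2 intensities were 9.20, 9.91 and 10.25 in OC2-KO and 9.16, 9.91 and 9.76 in OC2-WT. The genotypes differed by 0.036 and -0.0027 in pairs 1 and 2 and by 0.48 in pair 3. The difference was 0.17 ± 0.34 (SE, n = 3 each), or 1.13-fold with a 95% interval of 0.64-fold to 1.97-fold (limma, adjusted p = 1.00). Of 8 other genes for peptides and nitric oxide, 3 were higher and 5 lower, 0 past an unadjusted p of 0.05, with a median of -0.13. Crh, among the 5 lower, passed the filter through OC2-WT alone, with means of 6.81 in OC2-KO and 7.10 in OC2-WT. Tac1, the gene of substance P, differed by 0.49 ± 0.26 (SE) and was higher in 3 of 3 pairs, by 0.46, 0.66 and 0.36, and Adcyap1, the gene of the peptide PACAP, differed by -0.46 ± 0.39 (SE). Adcyap1 passed the filter through OC2-WT alone, differed by -1.58, 0.37 and -0.16 in pairs 1, 2 and 3, and stood at -0.048 without OC2-KO replicate 1. Tac1 had an unadjusted p of 0.102 with limma and of 0.0233 with the replicate block (adjusted p = 1.00 with both).

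**Figure D3:**
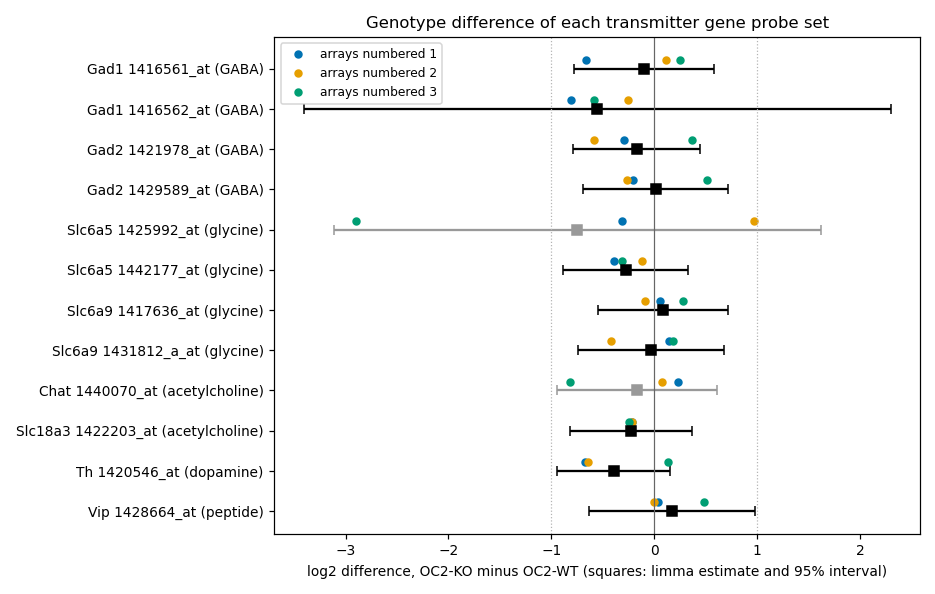
Log2 difference of OC2-KO minus OC2-WT (horizontal axis) for each member probe set (rows), as the limma estimate with its 95% interval (squares, grey where the probe set lay below the filter) and as the difference within each pair (coloured points). All intervals include 0, and Th has -0.67, -0.64 and 0.13 in pairs 1, 2 and 3.

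Like the probe sets kept in all, the members varied with the number of the array more than with the genotype. The number took up a median of 75.2% of the variation of the 10 probe sets kept, beside 71.0% over all probe sets kept. Genotype took up 3.82% beside 5.0%. The share of the number was the larger in 9 of 10, with Th as the exception, a count not made over all probe sets. Having 3 numbers but 2 genotypes favours a larger share for the number. By pair, 7, 9 and 3 of the 10 were lower in OC2-KO in pairs 1, 2 and 3, with median differences of -0.26, -0.24 and 0.22. Medians over all genes with a probe set kept were 0.0011, -0.0075 and -0.0083. Of the 10, 3 were lower in all pairs (Gad1 1416562_at, Slc6a5 1442177_at and Slc18a3) and 0 were higher in all pairs, where 12.4% and 10.3% of all probe sets kept did so. Amacrine cell markers, which hold Slc32a1 but no member, were 0 higher and 10 lower in OC2-KO (before any centring on them), with 0 past an unadjusted p of 0.05 and a median of -0.18. That median was -0.53, -0.035 and 0.044 in pairs 1, 2 and 3. Their leading genes were the transcription factors Tfap2b (-0.46 ± 0.29, SE), Pax6 (-0.24 ± 0.22, SE) and Barhl2 (-0.24 ± 0.25, SE). The summed intensity of these markers was 24460 to 30355 in OC2-KO and 29540 to 31133 in OC2-WT, and its part in the member values was not tested. Tfap2b was lower in 3 of 3 pairs, by 0.64, 0.39 and 0.35, and its unadjusted p was 0.150 with limma and 0.0296 with the replicate block (adjusted p = 1.00 with both). In adult OC2-KO retinas the study counted cells stained for Pax6 and amacrine cells stained for calbindin, and found neither changed. It also saw no significant difference by in situ hybridisation for Gad1 and Slc6a9. Whether other cells contribute to the amacrine cell marker values was not tested.

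Horizontal cell markers were 0 higher and 5 lower in OC2-KO, 2 of them past an unadjusted p of 0.05 and 0 past an adjusted one, with a median of -0.57 and with -0.92, -0.50 and -0.65 in pairs 1, 2 and 3. The leading genes were Calb1, a calcium-binding protein gene (-0.76 ± 0.23, SE), the cytoskeletal GTPase gene Septin4 (-0.57 ± 0.22, SE) and the transcription factor gene Onecut1 (-1.80 ± 1.09, SE). Onecut1 passed the filter through OC2-WT alone, with means of 5.56 in OC2-KO and 7.36 in OC2-WT, so the filter favoured a lower value, and its difference was -0.44 without OC2-KO replicate 1 and -0.75 with a floor at 6. The study singled out Calb1 and Septin4 on these same arrays, so their direction here is not independent evidence. Its report of fewer horizontal cells in OC2-KO also drew on calbindin staining, in situ hybridisation and quantitative PCR of Lhx1, none of which use these arrays. Lhx1 lay below the filter on these arrays, with means of 4.90 in OC2-KO and 6.53 in OC2-WT and an SD of 1.57 and 0.45. The study also counted amacrine cells stained for calbindin, so Calb1 is not particular to horizontal cells. Whether other cells contribute to the horizontal cell marker values was not tested. Whether horizontal cells contribute to the Gad1 and Gad2 signal was not tested. The summed intensity of the horizontal cell markers was 9740 to 13618 in OC2-KO and 15623 to 18746 in OC2-WT.

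Markers of other cells are given beside the members, and their part in the member values was not tested. In OC2-KO, 5 bipolar cell markers were lower and 1 was higher, at a median of -0.42 and pair medians of -0.40, -0.40 and -0.25, 0 past an unadjusted p of 0.05 with limma and 3 with the replicate block. Among the 5 lower, Gpr179 passed the filter through OC2-WT alone. The study singled out Pcp2, also among the 5, on these same arrays, so its direction here is not independent evidence. Microglia markers above the filter were 4 higher and 0 lower with a median of 0.43. Astrocyte markers were 3 higher and 0 lower with a median of 0.24. Each list had 1 gene past an unadjusted p of 0.05 with limma, namely Tyrobp (1.05 ± 0.30, SE) and Gfap (1.40 ± 0.49, SE). In the study GFAP staining rose in Müller glia processes of OC2-KO retinas, so Gfap is not particular to astrocytes here. The study singled out Gfap on these same arrays, so its direction here is not independent evidence. The medians were 0.34 for vascular cell, 0.23 for cone, 0.91 for lens, 0.044 for rod, 0.033 for ganglion cell, -0.029 for Müller glia and -0.083 for pigment epithelium and choroid markers. The pair medians of the lens markers were -0.55, 0.81 and 2.66. Among them Bfsp1, higher in OC2-KO, passed the filter through OC2-KO alone, and Lim2, lower in OC2-KO, through OC2-WT alone.

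**Figure D4:**
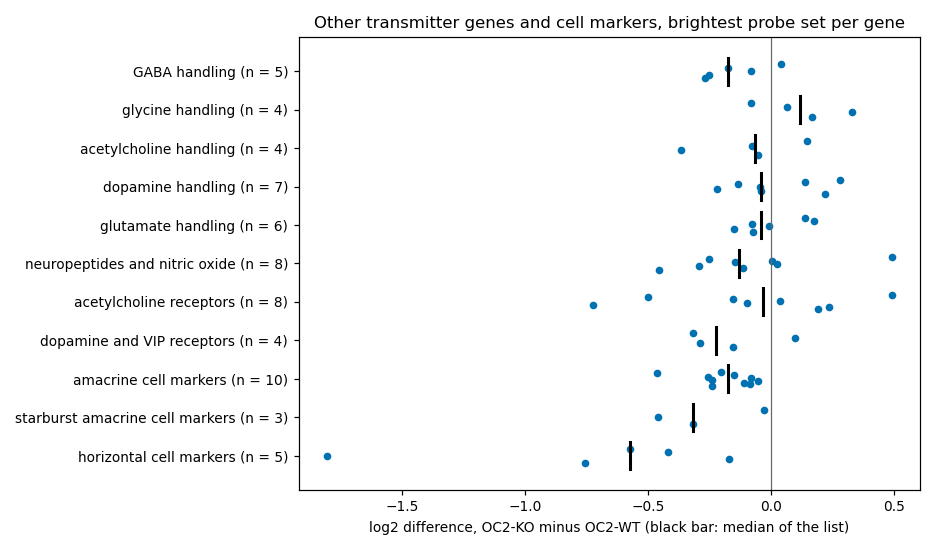
Log2 difference of OC2-KO minus OC2-WT (horizontal axis) for the brightest probe set of each gene above the filter (points) in lists of other transmitter genes and cell markers (rows), with the median of each list as a black bar. Among the lists drawn, the medians run from -0.57 for horizontal cell markers to 0.12 for glycine handling, beside -0.0048 over all genes.

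The genes whose log2 values followed a member most closely over the 6 arrays were given by Pearson's correlation among 11064 other genes, as a description of arrays that vary in pairs. For Gad1 on 1416561_at they were Ing3 (r = 0.998) and Ociad2 (r = 0.991), for Slc6a9 Tubb4b (r = 0.996) and Tafa5 (r = 0.995), for Vip Ptdss1 (r = 0.992) and Zfp3 (r = 0.992), and for Th Dnajc21 (r = 0.959) and Ttbk1 (r = 0.953). None of these 8 genes is a member or belongs to the lists above, and their own differences ran from -0.28 for Ttbk1 to 0.15 for Ptdss1.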

How the data were processed

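Adult retinal RNA was amplified, biotinylated and hybridised to Affymetrix mouse genome arrays, 3 per genotype. The authors used MAS5 for background adjustment and scaling, and they deposited linear intensities whose 2% trimmed mean is 500.0 on every array. Such scaling hides a change common to all genes. Precision is limited by having 3 arrays a genotype. Log2 values were used without the 64 control probe sets, and 21176 probe sets with a mean above 7 in either genotype were kept, as in the study's methods. Genotypes were compared by limma (version 3.58.1, under R 4.3.3; lmFit, then eBayes) over 6 arrays, two-sided, with Benjamini-Hochberg adjustment over all probe sets kept. No 2 arrays held identical values. Probe sets were named from the platform annotation, and 8 of 8 members measured had the same gene number in RefSeq's table for GRCm38.p6.

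The members and gene lists were chosen with earlier results of these data known. Every member probe set is named. From each list of transmitter genes or receptors, and from the starburst cell markers, the 2 kept genes with the smallest p were named. From the amacrine and horizontal cell markers 3 each were named, with Slc32a1 added, and the brightest probe set stood for its gene in a list. Slc5a7, Ddc, Slc6a3 and Lhx1, which lay below the filter, were named after their values were seen. So were Maob, Crh, Chrnb4, Gpr179, Bfsp1 and Lim2, which passed it through a single genotype. Tyrobp and Gfap were named for their p, Pcp2 because the study singled it out, and Glul to describe its list.

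Deviations from the genotype means correlated at 0.576 to 0.590 between arrays of the same number and at -0.429 to -0.135 between others, which makes equal numbers pairs. The labels do not say that a number marks a litter, and the pairing rests on these correlations. Alternatives were other filters, other scalings, a floor, an intensity trend, array weights, the replicate block, the methods' t-test in 2 forms, and leaving out arrays or pair 3. Only the unpaired limma fit was run on simulated data. The simulated arrays varied independently, so that run does not cover arrays that vary in pairs.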

Additional observations from a re-analysis of the deposited data

How the results depend on the processing

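Of 37 differences followed over the alternatives, 23 kept their direction in every alternative run and 14 did not, Chat and Slc6a5 1425992_at, both below the filter, being among the 14. The smallest adjusted p of a member in any was 0.998. Probe sets past an adjusted p of 0.05 numbered 3 instead of 0 with each array centred on its amacrine cell markers (Onecut2, Edn2 and Lman1) and 6 when the replicate block was joined with an intensity trend, none of them a member. At an unadjusted p of 0.05 the count of 209 (140 higher, 69 lower) became 887 with the replicate block (443 higher, 444 lower), 779 with the block plus trend, 436 with array weights (235 higher, 201 lower), 1144 without a filter and 127 with a filter at 8, and leaving out 1 array gave 190 to 499, the highest without OC2-KO replicate 2. The cause was not tested, except that the filters change how many probe sets are tested. The count of members past that threshold was 1 with the replicate block and 1 with the block plus trend (Gad1 1416562_at), 1 without pair 3 (Th), and 0 to 0 when leaving out 1 array. The block changed no adjusted call.

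Centring on amacrine cell markers raised all differences by 0.24, and it turned Gad1 1416561_at (0.14), Gad2 1421978_at (0.063), Slc6a9 1431812_a_at (0.21), Slc18a3 (0.0094), Slc32a1 (0.16), Slc17a6 (0.087), Qdpr (0.10), Drd1 (0.081) and Chat (0.066) positive. It also moved the split at an unadjusted p of 0.05 to 167 higher and 19 lower. Array weights turned Gad1 1416561_at to 0.14, Gad2 1429589_at to -0.18 and Slc6a9 1417636_at to -0.10, and without pair 3 Gad2 1429589_at was -0.24, Slc6a9 1417636_at -0.019, Chat 0.15 and Slc6a5 1425992_at 0.32. Leaving out 1 array in turn gave -0.33 to 0.066 for Gad1 1416561_at, -1.67 to 0.58 for Gad1 1416562_at, -0.33 to 0.026 for Gad2 1421978_at, -0.14 to 0.24 for Gad2 1429589_at, -0.063 to 0.28 for Slc6a9 1417636_at and -0.25 to 0.24 for Slc6a9 1431812_a_at. It gave -0.059 to 0.47 for Vip, -0.35 to 0.059 for Qdpr, -0.22 to 0.20 for Slc32a1 and -0.28 to 0.050 for Chat. Th ran from -0.55 to -0.31 and Slc6a5 1442177_at from -0.48 to -0.16. The filter at 8 left out Th, Slc18a3 and Slc6a5.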
